A study of Mus musculus with 72 samples.

Results

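The integrated stress response and amino acid supply of mouse embryonic stem cells were followed through 10 genes chosen by symbol. They are Atf4, Ddit3, Asns, Trib3, Chac1, Slc38a2, Slc7a11, Sesn2, Psat1 and Phgdh, of 51826 genes in the count files, with 1 gene for each symbol. E14TG2a cells, an established line of mouse embryonic stem cells, were labeled with 4-thiouridine (4sU), a uridine analog that new RNA takes up and that is read after conversion as a T-to-C mismatch (SLAM-seq). Poly(A)-selected RNA was sequenced from whole cells and from the nucleus, the cytosol and the membrane fraction of the same lysates. There were 72 libraries, 18 from each of the 4 extracts, in 36 groups of 2.

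All groups shared 1 cell line, medium with serum, LIF and 2 inhibitors that hold the stem cell state, and addition of non-essential amino acids and a glutamine dipeptide. E14TG2a is a subline without a working Hprt gene, a lack that all groups share. Labeling lasted 15, 20 or 30 min in replicates 1 and 2 and 20, 40, 60 or 120 min in replicates 3 and 4. Replicates 5 and 6 had labeling of 60 or 120 min alone. The replicates were passaged independently. The p-values below rest on the spread between the 2 cultures of each group, estimated jointly over all groups of a fit. Cycloheximide, an inhibitor of translation, was in the buffers at harvest and fractionation of every group. By the labels the 4sU dose was 500 µM up to 40 min and 100 µM at 60 and 120 min, whereas the study's methods place a part of the 60 and 120 min libraries at 500 µM. The conversion rates deposited for replicates 3 and 4 ranged from 2.69 to 3.56% at 20 min and from 4.09 to 6.04% at 40 min. They ranged from 5.83 to 8.29% at 60 min and from 8.83 to 12.2% at 120 min. Those of replicates 5 and 6 ranged from 2.38 to 3.99% at 60 min and from 3.26 to 3.96% at 120 min. The study reports that this rate rises with time at the high dose and does not change at the low dose. Dose and replicate pair cannot be told apart at 60 and 120 min. By the labels, dose also changes between 40 and 60 min within replicates 3 and 4. Time and labeled dose thus cannot be told apart where 60 or 120 min is compared with 20 min. Unlabeled libraries were not used here, so that 20 min was the earliest reference for replicates 3 and 4.

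Between 13185351 and 52975732 reads per library were assigned to genes. In whole cells, 8 stem cell markers summed to 6601 to 13442 TPM (transcripts scaled to exon length and library total), and 12 markers of other cell types to 8.96 to 20.8 TPM, with 8 of the 12 at a median under 1 TPM. Malat1, a nuclear RNA, had a median of 396 TPM in the nucleus and 41.0 in the cytosol, and Hspa5, which is translated at the endoplasmic reticulum, 1005 TPM in the membrane fraction and 42.3 in the cytosol. The whole-cell libraries of replicate 6 stood apart, with shares of new RNA in the reverse order of their labeled times. Their median share of new RNA over 11461 genes was 0.374 at 60 min and 0.175 at 120 min, against 0.219 and 0.387 in replicate 5. In replicate 6 the share was higher at 60 min in 10 of 10 members and in 99.0% of these genes, and in replicate 5 in 0 members and 3.87% of genes. Whether these libraries were exchanged cannot be told apart from other causes, so that the times of the whole-cell values of replicate 6 are in doubt. They were used as labeled, and the tests between groups that hold them were repeated without replicate 6.

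In the integrated stress response, kinases that sense amino acid shortage, unfolded proteins or other stress phosphorylate the initiation factor eIF2. General translation then falls while the mRNA of the transcription factor ATF4 is translated better. ATF4 raises genes for making and importing amino acids, the factor CHOP (encoded by Ddit3), and genes that feed back on the response or on growth. Stem cells in culture divide rapidly and draw on serine, asparagine and cystine.

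ATF4 acts with C/EBP family partners at a composite element with the core TGATGNAA. This core was searched on both strands of the RefSeq promoter windows (GRCm38.p6, from 250 bases before to 50 bases after a start). It was in 1304 of 32851 windows (3.97%) and in windows of 4 of the 10 members, all of which had a window. The matches are shown because they place the element in 4 of the genes described below, each on the strand of its gene with the 8 bases of the match in capitals.
Asns, chr6:7693214-7693243, minus strand: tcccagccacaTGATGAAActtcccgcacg
Trib3, chr2:152344028-152344057, minus strand: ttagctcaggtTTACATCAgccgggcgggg
Chac1, chr2:119351038-119351067, plus strand: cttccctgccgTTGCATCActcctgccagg
Slc7a11, chr3:50443661-50443690, minus strand: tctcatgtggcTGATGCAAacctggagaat
Slc7a11, chr3:50443642-50443671, minus strand: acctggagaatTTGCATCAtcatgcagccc
The match of Asns lay 23 to 16 bases before the start. That of Chac1 lay 193 to 186 bases before it and that of Trib3 at bases 15 to 22 after it, both in reverse orientation. Slc7a11 held a forward match from 66 to 59 and a reverse match from 47 to 40 bases before its start. The windows of Atf4, Ddit3, Slc38a2, Sesn2, Psat1 and Phgdh held no such letters. A match is a description of sequence, and no binding was measured.

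Asns, Atf4 and Psat1 had the highest whole-cell levels among the members by the median over all libraries. Asns, which makes asparagine from aspartate, had a median of 423 TPM over 18 libraries (209 to 742). Atf4, the transcription factor at the center of the response (chr15:80255184-80257541), had 347 TPM (176 to 484). Psat1, an enzyme of serine synthesis, had 228 TPM (103 to 372). These 3 lay at the 98.1, 97.6 and 96.1 percentile of 13051 genes with a median of at least 1.5 TPM.

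Sesn2, a leucine-binding inhibitor of mTORC1 signaling, followed with 156 TPM (53.2 to 238). Phgdh, which catalyzes the first step of serine synthesis, had 112 TPM (48.0 to 160). Trib3, a pseudokinase that restrains ATF4 and CHOP, had 67.9 TPM (26.7 to 121). Slc38a2 (SNAT2), an importer of small neutral amino acids, had a median of 61.8 TPM (24.3 to 255). Chac1, an enzyme that degrades glutathione, was at 20.2 TPM (4.61 to 60.2) and Ddit3 at 13.2 TPM (7.33 to 36.1). Slc7a11, the cystine importer of system xc-, stood last at 0.313 TPM (0.143 to 0.844), on 1 to 88 reads per library over all extracts. Each neighbor in this order overlapped in range with the next, except Ddit3 and Slc7a11. These ranges include differences between replicate pairs, which were large for several members. In replicates 1 and 2 Slc38a2 had a median of 157 TPM (125 to 255), above Psat1 at 132 TPM (103 to 187).

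During labeling of replicates 3 and 4, the whole-cell level of Slc38a2 was lower at 120 min than at 20 min. In whole cells its level in CPM (counts scaled to the library's total gene reads) was 189 and 190.0 at 20 min, 127 and 141 at 40 min, 141 and 131 at 60 min, and 86.8 and 71.7 at 120 min. The values at 120 min were below all earlier ones. The log2 difference between 120 and 20 min was -1.18 ± 0.16 (SE, n = 2 per time), or 2.27-fold lower, with an adjusted p of 0.0103 in edgeR's quasi-likelihood test with Benjamini-Hochberg adjustment over all genes. It was the 1 member of 10 called in whole cells, where calls (adjusted p under 0.05 and over 0.5 on the log2 scale) covered 0.113% of all genes tested. With 2 cultures in each group this rests on both: without replicate 3 or 4 the difference was -1.35 and -1.02 and the adjusted p 0.432 and 0.794.

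The fall of Slc38a2 was also called in the membrane fraction and the nucleus. In the membrane fraction it went from 158 and 211 CPM at 20 min to 74.0 and 73.5 CPM at 120 min (log2 difference -1.24 ± 0.18, edgeR adjusted p = 0.0106). In the nucleus it went from 302 and 260.3 CPM to 156 and 111 CPM (-0.94 ± 0.15, adjusted p = 0.00683). In neither extract did the 2 times overlap. In the cytosol, where its level was lowest, it went from 26.5 and 28.1 CPM to 18.8 and 16 CPM, which was not called (-0.60 ± 0.15, adjusted p = 0.0659). Leaving out replicate 3 or 4 ended the call in the membrane fraction (adjusted p of 0.0619 and 0.146) and not in the nucleus (0.0226 and 0.0329). A lower share of the library cannot be told apart from fewer cells with the RNA or less of it per cell.

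Chac1 took a like course with more spread between the cultures. In the cytosol its level was 40.3 and 28.9 CPM at 20 min, 33.1 and 28.6 CPM at 40 min, 23.3 and 19.5 CPM at 60 min, and 14.2 and 14.7 CPM at 120 min. The log2 difference between 120 and 20 min was -1.24 ± 0.28, with an edgeR adjusted p of 0.0453. In whole cells it was 33.0 and 19.4 CPM at 20 min and 7.96 and 10.2 CPM at 120 min. Here the larger difference of -1.45 ± 0.36 was not called by edgeR (adjusted p = 0.124), and DESeq2 called it (adjusted p = 0.0151). The 2 times did not overlap in either extract. The call in the cytosol ended without replicate 3 or 4 (adjusted p of 0.126 and 0.0993) and with upper-quartile normalization (0.0506).

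Trib3 gave negative estimates in every extract, from -0.75 ± 0.26 in whole cells to -0.49 ± 0.18 in the nucleus, and was called in none. In whole cells its values were 86.3 and 70.6 CPM at 20 min and 40.0 and 49.0 CPM at 120 min, which do not overlap (adjusted p = 0.316 in edgeR).

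Sesn2 was the 1 member called higher. Its nuclear level was 257 and 247 CPM at 20 min, 252 and 269 CPM at 40 min, 299 and 244 CPM at 60 min, and 360.5 and 322 CPM at 120 min. The log2 difference between 120 and 20 min was 0.59 ± 0.14, with an edgeR adjusted p of 0.0421. The call ended without replicate 3 or 4 (adjusted p of 0.0893 and 0.141) and with no filter on low counts (0.0575). Its whole-cell values of 261 and 226 CPM at 20 min and 229 and 276 CPM at 120 min overlapped.

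By extract, the calls between 120 and 20 min were 2 members in the nucleus (2.91% of all genes), 1 in the cytosol (1.04%) and 1 in the membrane fraction (0.0741%). The transcription factors and the enzymes were called in no extract. The whole-cell level of Asns was 641 and 561 CPM at 20 min and 643 and 678 CPM at 120 min, and that of Psat1 478 and 415 CPM and 478 and 528 CPM. Atf4 was at 381 and 307 CPM and then at 280.1 and 294 CPM. Ddit3 was at 7.78 and 6.14 CPM and then at 7.28 and 7.97 CPM. The 2 times overlapped for Psat1 and Ddit3 and did not overlap for Atf4, while those of Asns were apart only by 641 against 643 CPM. The share of all genes without overlap is not given. With 2 values on each side, a lack of overlap here and elsewhere is thus a description and no test. In the nucleus 7 of 10 members had an unadjusted p under 0.05, against 3870 of 17810 genes. Phgdh was there at 69.0 and 94.5 CPM at 20 min, 124 and 124 CPM at 40 min, 83.9 and 158 CPM at 60 min, and 92.3 and 129 CPM at 120 min. Its log2 difference from 20 min was 0.71 ± 0.25, 0.68 ± 0.25 and 0.60 ± 0.25 at these times, and edgeR called none (adjusted p of 0.214, 0.187 and 0.169). The values at 40 min lay above those at 20 min, and those at 60 and 120 min overlapped with them. With no filter on low counts it was called at each of these times (adjusted p of 0.0161, 0.0118 and 0.0417).

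Earlier times gave no call. Between 40 and 20 min and between 60 and 20 min edgeR called 0 of 10 members in each extract (0.0% of all genes), with unadjusted p under 0.05 in 0 to 2 members at 40 min and in 1 to 4 at 60 min. Of the 16202 to 17810 genes tested in an extract, 568 to 3091 had such a p at 40 min and 474 to 3454 at 60 min. DESeq2 called 1 member, at 60 min in the nucleus. Between 120 and 60 min in replicates 3 and 4 edgeR again called 0 members (0.0%), with 1 to 3 at an unadjusted p under 0.05, and DESeq2 called 1 in whole cells and 1 in the membrane fraction. Between 120 and 60 min in replicates 5 and 6 both tools called 0 in each extract (0.0% in edgeR), with 0 to 1 at an unadjusted p under 0.05. Slc38a2 was there at 137 and 205 CPM at 60 min and at 210.0 and 225 CPM at 120 min in whole cells, a log2 difference of 0.20 ± 0.16, with the times of replicate 6 in doubt. Without replicate 5 or 6 the count of 0 held in each extract. The change from 60 to 120 min was not shown to differ between the pairs: edgeR called 0 members in any extract (0.0%, with 0 to 1 at an unadjusted p under 0.05), and DESeq2 0. Between 30 and 15 min in replicates 1 and 2 both tools also called 0 members in each extract (0.0% in edgeR, with 0 to 1 at an unadjusted p under 0.05).

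Other genes of these pathways were read in 7 lists. Between 120 and 20 min in whole cells edgeR called none of their 82 genes tested (0.113% of all genes). An unadjusted p under 0.05 was found for 16 of them, against 1656 of 16858 genes, and DESeq2 called Herpud1 and Btg2. The list of transcription factors and feedback genes had a median log2 difference of -0.19 over 11 tested genes, against -0.01 over all genes. Its smallest p were those of Herpud1, a component of endoplasmic reticulum degradation, at -0.89 (adjusted p = 0.0910 in edgeR), and of Stc2, a secreted target of ATF4, at -0.94. Amino acid transporters had a median of -0.21 over 10 genes, with Slc6a9, a glycine transporter, at -0.85 and Slc1a4 at -0.40. Endoplasmic reticulum chaperones had a median of -0.11 over 11 genes, with Dnajb9 at -0.70 and Xbp1 at -0.31. The sensors and eIF2 subunits had a median of 0.17 over 16 genes, with Eif2s3x at 0.42 and Eif2s1 at 0.28. The enzymes of serine, one-carbon and proline metabolism had a median of 0.11 over 12 genes, with Aldh1l2 at 0.93 and Mthfd1l at 0.39. The tRNA synthetases, which charge tRNAs with amino acids, had a median of 0.21 over 12 genes, with Eprs at 0.36 and Iars at 0.35. Targets of p53 had a median of 0.27 over 10 genes, with Btg2 at 0.76 and Bbc3 at 0.46.

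In the fractions some of these genes were called between 120 and 20 min, and they are named here after their values were seen. In the nucleus 8 of 82 were higher and 3 lower, against 2.91% of all genes. The higher ones were the p53 targets Cdkn1a, Mdm2, Phlda3, Btg2 and Bbc3 (5 of 10, log2 differences of 0.67 to 1.04), the eIF2B subunits Eif2b3 and Eif2b5, and Mthfd1l, a mitochondrial enzyme of one-carbon metabolism. The lower ones were Stc2 (-0.98) and the transporters Slc6a9 (-1.27) and Slc7a3 (-0.59). None of 12 tRNA synthetases was called there by edgeR or DESeq2, and 9 had an unadjusted p under 0.05, against 3870 of 17810 genes (median 0.38). In the cytosol (1.04% of genes) Cdkn1a, Btg2 and Bbc3 were higher and Dnajb9 was lower, and in the membrane fraction (0.0741% of genes) Btg2 was higher.

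The replicate pairs also differed at the same labeling time. At 20 min of labeling, Chac1 was at 4.29 and 8.17 CPM in whole cells of replicates 1 and 2 and at 33.0 and 19.4 CPM in replicates 3 and 4. The log2 difference of 2.13 ± 0.37 was 4.38-fold (edgeR adjusted p = 0.000915). Slc38a2 went the other way, with 480.3 and 689 CPM in replicates 1 and 2 against 189 and 190.0 CPM in replicates 3 and 4, which was 2.99-fold lower (-1.58 ± 0.16, adjusted p = 1.35e-05). Neither gene overlapped between the pairs.

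Asns and Psat1 were both about 2 times as high in replicates 3 and 4. Asns was at 289 and 302 CPM against 641 and 561 CPM (log2 difference 1.06 ± 0.14, edgeR adjusted p = 0.000117). Psat1 was at 216 and 253 CPM against 478 and 415 CPM (0.97 ± 0.14, adjusted p = 0.000246). Trib3 was at 29.4 and 39.9 CPM against 86.3 and 70.6 CPM (1.22 ± 0.27, adjusted p = 0.00383), and Sesn2 at 135 and 180.2 CPM against 261 and 226 CPM (0.67 ± 0.17, adjusted p = 0.00961). None of these overlapped. In whole cells Atf4, the factor itself, differed less (0.38 ± 0.16, edgeR adjusted p = 0.0922), as did Phgdh (0.60 ± 0.25, adjusted p = 0.0877), while Ddit3 overlapped (0.03 ± 0.34). In the fractions Atf4 was called higher in replicates 3 and 4 in the cytosol and the membrane fraction, and Phgdh in the membrane fraction. The mean level of Atf4 was 490 against 653 CPM in the cytosol and 199 against 341 CPM in the membrane fraction. With single replicates left out, its log2 difference was 0.50 to 0.85 and 0.53 to 0.77 there.

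In all, 6 members were called in whole cells (5 higher and 1 lower in replicates 3 and 4), where 22.3% of all genes were called. The counts were 3 members in the nucleus (12.9% of genes), 7 in the cytosol (39.4%) and 7 in the membrane fraction (23.5%). Chac1, Trib3 and Slc38a2 were called in the same direction in each of the 4 extracts. Sesn2 was lower in replicates 3 and 4 in the cytosol (-0.52 ± 0.19, edgeR adjusted p = 0.0321) and higher in whole cells. Without replicate 3 the whole-cell calls went from 6 to 2 (Asns and Slc38a2), and without replicates 1, 2 and 4 to 8, 6 and 5. At 20 min the share of reads outside annotated genes was 18.3 to 19.8% in whole cells of replicates 1 and 2 and 11.3 to 17.1% in replicates 3 and 4, and mitochondrial transcripts took 5.52 to 6.78% and 3.26 to 3.75% of gene reads. Their part in the differences between pairs was not tested, and the labels do not say what else differed between the pairs.

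The lists around the members differed between these pairs too, in whole cells against 22.3% of all genes called. The tRNA synthetases were called higher in replicates 3 and 4 in 12 of 12 tested genes, with a median log2 difference of 0.99, and the serine, one-carbon and proline enzymes in 7 of 12, with a median of 0.75. Among factors and feedback genes 5 of 11 were higher and 0 lower (median 0.49), namely Atf5, Cebpg, Nfe2l2, Nupr1 and Ddit4. The chaperones of the endoplasmic reticulum were lower in 10 of 11 (median -0.81). Amino acid transporters were lower in 4 of 10 (median -0.42), namely Slc7a3, Slc7a5, Slc38a1 and Slc43a1. Of 16 sensors and eIF2 genes 4 were higher (Eif2s1, Eif2s2, Eif2b3 and Eif2b5) and 2 lower (Eif2ak3 and Impact), with a median of 0.39, and of 10 p53 targets Sesn1 was higher and Trp53inp1 lower, with a median of 0.14. The median over all genes was -0.01. Extracts were not alike. Of 10 transporters 8 were lower in the cytosol and 10 in the membrane fraction, while in the nucleus 0 were lower and Slc1a4 and Slc6a9 were higher (median 0.13). The synthetases were higher in 4 of 12 in the nucleus, 10 in the cytosol and 8 in the membrane fraction, and the chaperones lower in 3, 7 and 9 of 11, where 12.9, 39.4 and 23.5% of all genes were called. The genes named in these counts were chosen after their values were seen.

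Ddit3 was set apart by the third pair. In whole cells it was between 5.93 and 8.76 CPM in replicates 3 and 4 at all 4 times, and at 25.3, 20.3, 20.0 and 22.6 CPM in replicates 5 and 6. At 60 min the log2 difference between replicates 5 and 6 and replicates 3 and 4 was 1.67 ± 0.33, or 3.18-fold (edgeR adjusted p = 0.00241), and at 120 min 1.28 ± 0.33 (adjusted p = 0.0111). It was called higher in replicates 5 and 6 in each of the 4 extracts at both times, with log2 differences from 0.74 to 1.67. The libraries of both pairs did not overlap in any of these. Leaving out single replicates ended its whole-cell call without replicates 3 and 5 at 60 min (adjusted p of 0.129 and 0.0522) and without replicates 3, 4 and 6 at 120 min (0.123, 0.116 and 0.0576). Part of Ddit3 overlaps Mars on the opposite strand, and the strand setting of the counting is not given in the sources used here, so that reads from Mars cannot be told apart with certainty.

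At 60 min 4 members were called in whole cells between these pairs, against 17.3% of all genes, and besides Ddit3 they were lower in replicates 5 and 6. Sesn2 was at 113 and 144 CPM against 263 and 239 CPM (log2 difference -0.97 ± 0.17, edgeR adjusted p = 0.00104), Asns at 379 and 435 CPM against 626 and 633 CPM, and Psat1 at 284 and 358 CPM against 474 and 471 CPM. The count of 4 went to 0 without replicate 3 and to 2 without replicate 4, 5 or 6 and with upper-quartile normalization. The call of Sesn2 ended without replicate 3 alone, that of Asns without replicates 3, 4 and 6, and that of Psat1 without any 1 of the 4. At 120 min 6 members were called (21.6% of genes): Asns, Psat1 and Sesn2 lower, and Ddit3, Slc38a2 and Slc7a11 higher. Slc38a2 was then at 210.0 and 225 CPM against 86.8 and 71.7 CPM (1.25 ± 0.16, adjusted p = 6.51e-05), and between 1.10 and 1.42 with single replicates left out, called each time. The count of 6 went to 3 without replicate 3 or 4 and to 5 without replicate 5 or 6. In the fractions, 6 and 4 members were called in the cytosol at 60 and 120 min (38.7 and 26.0% of genes), 2 and 5 in the membrane fraction (20.7 and 24.8%), and 2 and 3 in the nucleus (20.3 and 22.2%). These pairs share no culture, and their 4sU dose may differ as stated above.

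Between extracts, the transporters and the other members divided. Slc38a2 and Slc7a11, which encode proteins with transmembrane helices, were higher in the membrane fraction than in the cytosol. Slc38a2 was at 73.5 to 680.4 CPM (median 202) in the 18 membrane libraries and at 16 to 141 CPM (median 42.5) in the 18 cytosol libraries. The log2 difference was 2.69 ± 0.06 (6.46-fold, edgeR adjusted p = 6.29e-40). That of Slc7a11 was 2.36 ± 0.16 (5.13-fold) on few reads. At 20 min the difference between nucleus and cytosol was itself unlike in replicates 3 and 4 and replicates 1 and 2 for 4 members (Slc38a2, Sesn2, Psat1 and Asns) in edgeR's test of this contrast, against 25.4% of all genes, and that between membrane fraction and cytosol for 0 members (0.0212% of genes). Levels in CPM are shares within each extract, so that no amount per cell is compared.

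In all, 4 members were called between the membrane fraction and the cytosol, where 35.6% of all genes were called. Atf4 (-0.69 ± 0.05) and Ddit3 (-0.60 ± 0.11), which encode factors that act in the nucleus, were lower in the membrane fraction. The remaining 6 members lay between -0.46 and 0.01. Within pairs, Slc38a2 was at 3.03 in replicates 1 and 2, at 2.59 in replicates 3 and 4 and at 2.38 in replicates 5 and 6. The numbers of members called were 4, 7 and 2 in these pairs (31.5, 42.6 and 29.1% of genes). Upper-quartile normalization raised the pooled count from 4 to 7, as did leaving out replicate 4.

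Between the nucleus and the cytosol 8 members were called, where 67.6% of all genes were called. Slc38a2 (2.25 ± 0.06) and Slc7a11 (1.98 ± 0.16) had higher shares of the nuclear libraries. Psat1 (-1.24 ± 0.05), Atf4 (-1.09 ± 0.05), Chac1 (-1.01 ± 0.11), Ddit3 (-0.90 ± 0.11), Asns (-0.73 ± 0.04) and Trib3 (-0.62 ± 0.08) had lower ones. Phgdh and Sesn2 were under the limit of 0.5 at -0.35 and -0.13. Within the pairs 8, 9 and 6 members were called (58.6, 71.2 and 45.3% of genes). Sesn2 took different signs, at -0.78 ± 0.10 in replicates 1 and 2, 0.33 ± 0.09 in replicates 3 and 4 and -0.09 ± 0.13 in replicates 5 and 6.

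The share of new RNA divided the members into quickly and slowly renewed mRNAs. This share is the fraction of T positions read as C divided by the conversion rate of the library, and it can pass 1. No background was subtracted, so that sequencing errors stay in every share and weigh most where it is small. The 3 enzymes had a median cytosolic share of 0.0115 at 20 min and 0.0124 at 30 min in replicates 1 and 2. How much of such low shares, and of log2 differences that rest on them, is background was not tested. In whole cells of replicates 3 and 4, Atf4 had a share of 0.184 and 0.162 at 20 min, 0.254 and 0.278 at 40 min, 0.367 and 0.370 at 60 min, and 0.649 and 0.614 at 120 min. Chac1 had 0.0890 and 0.108 at 20 min and 1.01 and 0.942 at 120 min. Sesn2 had 0.0765 and 0.0970 at 20 min and 0.772 and 0.789 at 120 min. Each of these rose without overlap between 20 and 120 min, a rise that labeling itself brings in every gene.

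Slc38a2 went from 0.113 and 0.0872 to 0.768 and 0.692, Trib3 from 0.0932 and 0.0828 to 0.710 and 0.636, and Ddit3, with few reads, from 0.0750 and 0.345 to 0.770 and 0.864. The enzymes stayed low. Asns went from 0.0197 and 0.0127 to 0.0761 and 0.0635, Psat1 from 0.0199 and 0.0160 to 0.0564 and 0.0408, and Phgdh from 0.0140 and 0.0109 to 0.0438 and 0.0676. At 120 min the lowest share among the 6 factors, feedback genes and Slc38a2 was 0.614 and the highest among the enzymes 0.0761. Over 16 whole-cell libraries, without the 120 min libraries of replicates 3 and 4, the median percentile among 11461 genes was 97.3 for Ddit3, 96.0 for Atf4, 94.1 for Chac1, 91.5 for Sesn2, 86.5 for Trib3 and 85.2 for Slc38a2. It was 22.6 for Asns, 16.9 for Psat1 and 9.83 for Phgdh. The percentiles ranged from 70.9 to 99.4 for Ddit3, from 48.1 to 98.7 for Chac1 and from 6.91 to 38.8 for Asns. In replicates 5 and 6 that of Ddit3 lay between 70.9 and 84.6.

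The slow shares of the enzymes were not seen in their introns. At 120 min in nuclei of replicates 3 and 4, the intron share of the 3 enzymes was 0.769 to 1.14 while their exon share was 0.0742 to 0.196. In nuclei the exon share was below the intron share in 8 of 8 members tested, where 98.1% of all genes were called (limma on log2 of the share plus 0.01). The log2 difference was largest in the enzymes, with -3.77 ± 0.15 for Phgdh, -2.61 ± 0.09 for Asns and -2.39 ± 0.10 for Psat1. It was -1.31 ± 0.06 for Sesn2, -1.24 ± 0.09 for Slc38a2, -1.16 ± 0.09 for Trib3, -1.0 ± 0.06 for Atf4 and -0.98 ± 0.12 for Ddit3. The intron share was higher in 16 of 16 cultures for each of the 8. Chac1 and Slc7a11 had too few intron reads for this test. Relative to the library medians of exons and introns, the exon shares of Atf4, Ddit3, Trib3, Slc38a2 and Sesn2 lay on the higher side (0.61 to 0.94).

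**Figure D1:**
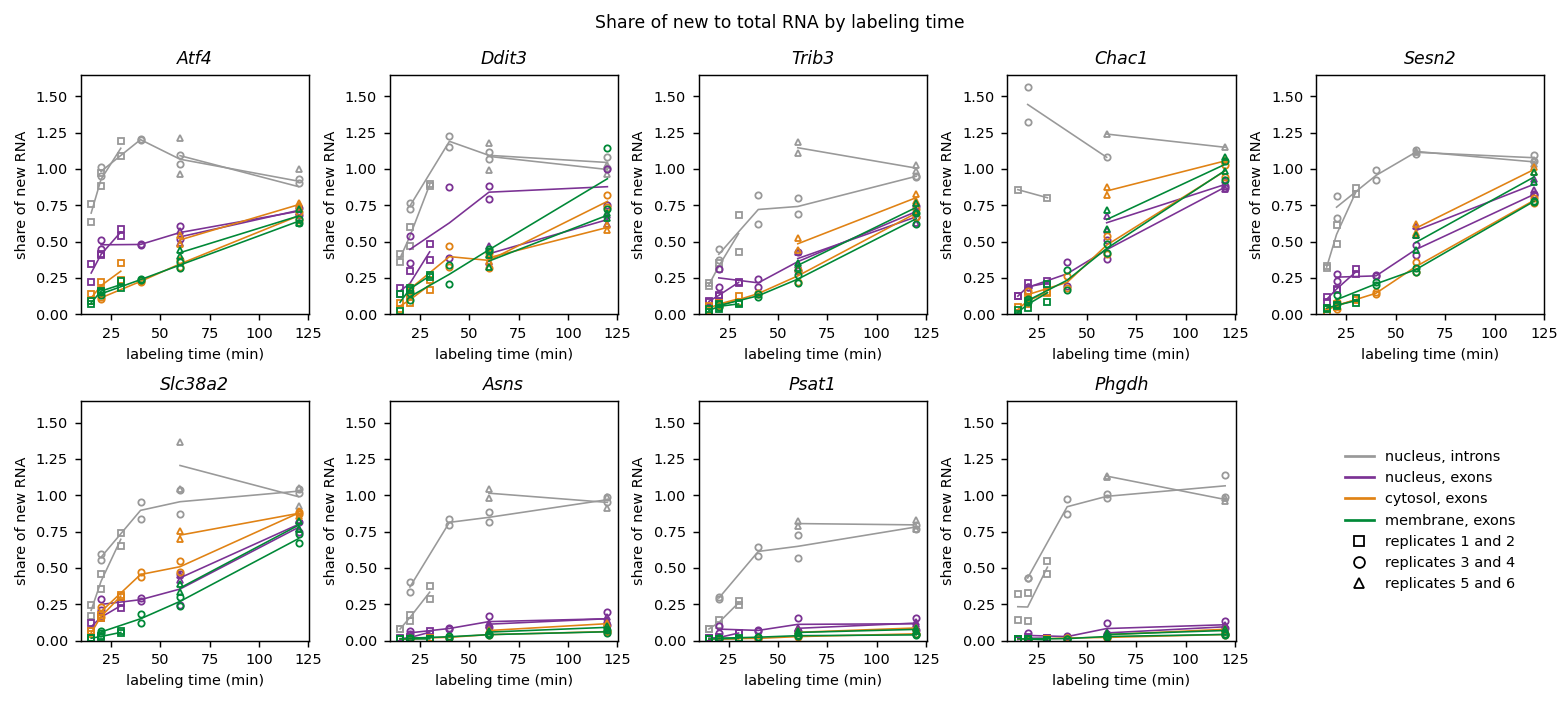
Share of new RNA in exons against labeling time in the nucleus, the cytosol and the membrane fraction for 9 genes (Slc7a11 is left out for its low counts), with 1 point per library and lines through the means of each replicate pair. Atf4, Ddit3, Trib3, Chac1, Sesn2 and Slc38a2 pass 0.6 at 120 min in replicates 3 and 4, while Asns, Psat1 and Phgdh stay below 0.2.

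New RNA made up a larger share of nuclear than of cytosolic mRNA for most members. Between the nucleus and the cytosol 8 of 9 members tested were called higher in the nucleus (limma, adjusted p under 0.05), where 85.1% of all genes were called and the median over all genes was 0.88. The log2 difference was 1.06 ± 0.11 for Psat1, 0.95 ± 0.10 for Sesn2, 0.92 ± 0.09 for Asns and 0.87 ± 0.08 for Atf4, and 0.41 ± 0.13 for Chac1. By culture, the nuclear share was the higher in 16 of 16 for Asns and Psat1 and in 14 for Atf4 and Ddit3. It was so in 13 for Phgdh, 12 for Trib3 and Sesn2, 9 for Chac1 and 4 for Slc38a2. Centered on the median of each library, none of the 9 was called higher, and Slc38a2, Chac1, Phgdh and Trib3 were called lower in the nucleus.

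Slc38a2 was the exception. Its log2 difference between nucleus and cytosol was -0.18 ± 0.09 (limma adjusted p = 0.0717), and -1.15 after centering (adjusted p = 7.12e-11). In the cytosol its share was 0.165 and 0.233 at 20 min, 0.472 and 0.438 at 40 min, and 0.547 and 0.469 at 60 min in replicates 3 and 4. In the membrane fraction, which held the higher level of this mRNA, the share was 0.0664 and 0.0514, then 0.180 and 0.120, and then 0.301 and 0.238. The membrane fraction was lower at each time, without overlap. Over all cultures the log2 difference between membrane fraction and cytosol was -1.37 ± 0.08 (2.58-fold lower on the scale of share plus 0.01, limma adjusted p = 1.67e-10), lower in 16 of 16 cultures. It was the 1 member of 9 called, against 20.4% of all genes. A block for the replicate number, which the labels do not define across times, gave 2 members. Atf4 was then called at -0.17 (limma adjusted p = 0.0399) beside Slc38a2. The cytosolic share of Slc38a2 had a median percentile of 96.9 among all genes.

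The other members differed less between membrane fraction and cytosol, from -0.30 ± 0.19 for Chac1 to 0.16 ± 0.11 for Sesn2, and without the replicate block none of them passed the test. In the cytosol of replicates 5 and 6, Sesn2 had shares of 0.624 and 0.559 at 60 min and 1.01 and 0.979 at 120 min, and Chac1 0.874 and 0.822 and then 1.06 and 1.05. Asns had 0.0734 and 0.0649 and then 0.117 and 0.115 in the same libraries.

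The growth of the share from 60 to 120 min was compared between replicates 3 and 4 and replicates 5 and 6 in whole cells. There limma called 0 of 10 members (0.0% of genes), with 4 at an unadjusted p under 0.05, against 2354 of 12452 genes. With replicate 5 left out 7 members were called and with replicate 6 left out 0, so that the 7 calls came with replicate 6, whose libraries stood apart, alone in its group.

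Level and share were combined into estimates of new RNA, as CPM times the share, and of older RNA, as the remainder, which falls below 0 where the share passes 1. In whole cells of replicates 3 and 4, the older RNA of Chac1 was estimated at 30.0 and 17.3 CPM at 20 min and at -0.116 and 0.587 CPM at 120 min, the first of which is below 0. Its new RNA went from 2.94 and 2.08 CPM to 8.08 and 9.61 CPM. Slc38a2 had 167 and 173 CPM of older RNA at 20 min and 20.1 and 22.1 CPM at 120 min, and its new RNA went from 21.4 and 16.6 CPM to 66.7 and 49.6 CPM. For both genes the new RNA at 120 min was below the older RNA of 20 min in each culture. This does not set them apart, because it also held for Trib3 and for the means of Atf4. Sesn2 was below in replicate 3 and above in replicate 4.

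Sesn2 behaved otherwise. Its older RNA went from 241 and 204 CPM to 52.3 and 58.3 CPM, and its new RNA from 20.0 and 21.9 CPM to 177 and 218 CPM. The sum thus stayed between 226 and 276 CPM. Atf4 had 284 CPM of older RNA at 20 min and 106 CPM at 120 min, with 59.8 and 181 CPM of new RNA. Trib3 went from 78.2 and 64.7 CPM of older RNA to 11.6 and 17.8 CPM. These values hold for shares of a library, and the share of new RNA at 120 min in replicates 3 and 4 was left out of the tests of shares other than that of growth from 60 to 120 min.

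**Figure D2:**
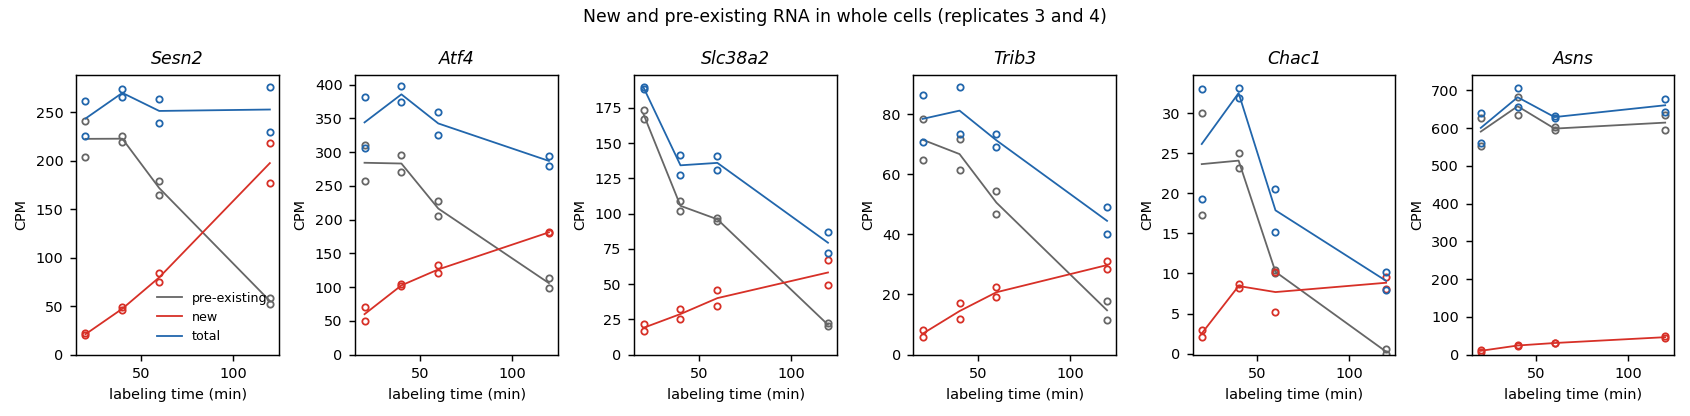
Older and new RNA of Sesn2, Atf4, Slc38a2, Trib3, Chac1 and Asns in CPM in whole cells of replicates 3 and 4 against labeling time, with points for the 2 libraries and lines through their means. Older RNA of Slc38a2 falls from 167 and 173 to 20.1 and 22.1 CPM, while new RNA of Sesn2 reaches 177 and 218 CPM.

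Over the 18 whole-cell libraries, Asns and Psat1 varied together (Pearson r of log2 CPM 0.990) and Asns and Slc38a2 in opposition (-0.900). Of 16858 genes, those most like Asns were Rpa1 (0.995), Dnajc7 (0.992) and Tars (0.991), and those most like Psat1 were Rpa1 (0.996), Farsb (0.994) and Tars (0.992). Trib3 was most like Chac1 (0.963), Gatd1 (0.941) and Arfgap2 (0.938), and Slc38a2 was most like Maco1, Slc39a6 and Adam17 (0.980 each). The libraries fall into 3 replicate pairs, so that these correlations include the differences between pairs.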

How the data were processed

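The 10 members and the pathway lists were chosen with earlier results of these data known. Paired reads of poly(A)-selected RNA were aligned by the authors with STAR 2.7.6 to GRCm38 (mm10), and raw counts of reads in exons were deposited by the authors per gene after counting with HTSeq 0.11.1. Counts of T positions and T-to-C mutations in exons and introns were also deposited, after variants found in unlabeled cells had been left out. The authors deposited 1 conversion rate per library, a fraction, and a ratio of converted to all T positions already divided by that rate, with no background subtracted. This ratio was recomputed here from the counts with a largest difference of 1.2e-13. Reads outside annotated genes stayed out of library sizes. Samples were grouped by extract, labeling time and replicate pair from the labels. Pooled or foreign columns were not present.

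Gene symbols, coordinates and exon lengths came from GENCODE M21 on GRCm38, with 51633 of 51826 genes matched. CPM was a count over the gene reads of its library, and TPM was scaled by the length of all exons of a gene.

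For tests of levels, genes were filtered by filterByExpr and normalized by TMM before the quasi-likelihood test of edgeR 4.0.16 (R 4.3.3) with Benjamini-Hochberg adjustment, with the 18 libraries of an extract and 9 groups in 1 fit. Comparisons of levels between fractions came from 1 joint fit of all 72 libraries in 36 groups. Shares were tested with limma 3.58.1 on log2 of the share plus 0.01 in genes with at least 400 T counts in each library used, with 16 libraries per fraction. The 120 min libraries of replicates 3 and 4 were left out of these, except in the comparison of 120 with 60 min between pairs. The study leaves out labeling over 60 min at the higher dose, because many genes changed in whole cells from 120 min on. Whether these libraries are of that kind is not settled. Their labels give 100 µM, while their conversion rates were the highest of all libraries. With them, 9 members in place of 8 were called for shares of nucleus against cytosol. They stayed in the tests of levels, where an effect of long labeling or of the labeled change in dose cannot be told apart from time. Calls of shares needed an adjusted p under 0.05 alone. The steps were tested on simulated data. Alternatives were DESeq2 1.42.0, upper-quartile normalization, no filter, a replicate block, each replicate left out and, for shares, T minima, pseudocounts and centering on library medians. The comparisons of replicate pairs at a common time, of 30 with 15 min, of 120 with 60 min in replicates 3 and 4, and of shares between membrane fraction and cytosol were added after the data were seen. Python 3.11.15 with pandas 2.3.3 and numpy 2.4.6 was used.

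Fractions of 1 culture come from 1 lysate. Their deviations from the group means correlated at 0.18 to 0.59 between membrane fraction and cytosol and at -0.12 to 0.48 between nucleus and cytosol. The main tests of levels and shares between fractions did not use this pairing and treated the libraries as independent. Named genes besides the members were, from each list, up to 4 called genes or the 2 with the smallest p between 120 and 20 min in whole cells, and the 3 genes most like a member, printed for 4 members. Genes named beside counts outside this rule were chosen after their values were seen. Reads carry no molecular identifiers, and counts of 1 to 88 reads limit Slc7a11.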

Additional observations from a re-analysis of the deposited data

Results flagged for a closer look

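For 4 members the difference between nucleus and cytosol at 20 min was not the same in replicates 3 and 4 as in replicates 1 and 2, by a test of the difference of the differences in edgeR with Benjamini-Hochberg adjustment, in which 25.4% of all genes were called. It was larger by 0.86 on the log2 scale in replicates 3 and 4 for Slc38a2 (adjusted p = 0.00367), whose nuclear level was 302 and 260.3 CPM against a cytosolic level of 26.5 and 28.1 CPM in that pair and 449.8 and 526 CPM against 118 and 101 CPM in replicates 1 and 2. It was larger by 0.94 for Sesn2 (adjusted p = 0.00454), with 257 and 247 CPM in the nucleus and 131 and 170.3 CPM in the cytosol of replicates 3 and 4, and 182 and 172 CPM and 266 and 251 CPM in replicates 1 and 2. The difference was -0.97 for Psat1 (adjusted p = 0.000178) and -0.75 for Asns (adjusted p = 0.00158), both of which were higher in the cytosol of replicates 3 and 4 than in that of replicates 1 and 2. Leaving out single replicates gave 1 to 6 members, with 1 left without replicate 1. The same test for membrane fraction against cytosol called 0 members (0.0212% of genes, 1 member at an unadjusted p under 0.05, DESeq2 0).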

How the results depend on the processing

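Of 1234 values of single members under an alternative, 1031 kept their direction and their side of the threshold, 96 were no longer called, 88 became called and 19 changed sign. Of 247 counts of called members, 214 stayed within 1.5 times the reported count, leaving single replicates out aside. The labels do not say what equal replicate numbers at different times share, and each pair holds 2 numbers. Deviations of equal numbers correlated at 0.11 to 0.61 in the cytosol, 0.095 to 0.62 in the membrane fraction, -0.14 to 0.66 in the nucleus and -0.22 to 0.51 in whole cells, so that not all were over 0.1 and the numbers were not taken as pairs. With the replicate block, genes called between 120 and 20 min went from 170 to 1044 in the cytosol, 518 to 1803 in the nucleus, 12 to 46 in the membrane fraction and 19 to 31 in whole cells, and in the nucleus from 0 to 1089 at 40 min and 0 to 1070 at 60 min. With this block, the counts for 120 against 20 min became 2 in whole cells, 4 in the nucleus, 3 in the cytosol and 2 in the membrane fraction. It gave 1 member in the nucleus at 40 min, 2 in the nucleus and 1 in the cytosol at 60 min, 1 in the cytosol for 120 against 60 min in replicates 3 and 4 and 1 for its difference between pairs, 2 for shares of membrane fraction against cytosol, 5 in the nucleus for replicates 3 and 4 against 1 and 2, 5 in the nucleus at 120 min and 1 in the membrane fraction at 60 min for replicates 5 and 6 against 3 and 4. DESeq2 gave 2 members in each of whole cells, cytosol and membrane fraction for 120 against 20 min, 1 in the nucleus at 60 min, and 1 in whole cells and 1 in the membrane fraction for 120 against 60 min in replicates 3 and 4. With no filter on low counts, 3, 3 and 2 were called in whole cells, cytosol and membrane fraction for 120 against 20 min, 1 in the nucleus at 40 and 1 at 60 min, and 1 in whole cells and 1 in the membrane fraction for 120 against 60 min. Upper-quartile normalization gave 0 in the cytosol for 120 against 20 min, 7 for the level of membrane fraction against cytosol and 2 in whole cells at 60 min for replicates 5 and 6 against 3 and 4. With adjusted p alone, 8 were called for the level of membrane fraction against cytosol and 4 in the membrane fraction at 60 min for replicates 5 and 6 against 3 and 4. The cause of these changes was not tested, except that no fold limit admits more genes by construction.

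Leaving out single replicates gave, for 120 against 20 min, 0 members in whole cells and in the membrane fraction, 0 to 2 in the cytosol and 1 to 2 in the nucleus, and 0 to 1 in the nucleus at 40 and at 60 min and in the cytosol for 120 against 60 min in replicates 3 and 4. For replicates 3 and 4 against 1 and 2 it gave 2 to 8 in whole cells, 2 to 5 in the nucleus, 5 to 7 in the cytosol and 5 to 7 in the membrane fraction. For replicates 5 and 6 against 3 and 4 it gave 0 to 2, 0 to 3, 4 to 6 and 1 to 3 in these extracts at 60 min and 3 to 5, 0 to 4, 3 to 5 and 2 to 4 at 120 min. It gave 4 to 7 for the level of membrane fraction against cytosol, 6 to 8 for nucleus against cytosol, 1 to 6 for its difference between pairs, and for shares 7 to 9 for nucleus against cytosol, 1 to 3 for membrane fraction against cytosol and 0 to 7 for the difference between pairs in the whole-cell rise from 60 to 120 min (7 without replicate 5).

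Centering shares on the library median gave 4 members for nucleus against cytosol and 2 for membrane fraction against cytosol. Signs changed for nucleus against cytosol in Atf4 (-0.10), Ddit3 (-0.14), Asns (-0.048), Trib3 (-0.33), Chac1 (-0.55), Sesn2 (-0.014) and Phgdh (-0.48), for exon against intron in Atf4 (0.92), Ddit3 (0.94), Trib3 (0.76), Slc38a2 (0.68) and Sesn2 (0.61), and for the rise from 60 to 120 min in replicates 3 and 4 less that in replicates 5 and 6 in Atf4 (-0.26), Asns (-0.62) and Phgdh (-0.44). With single replicates left out, that of Asns went from -0.12 (without replicate 6) to 1.16 (without replicate 5). Sesn2 in the cytosol went from -0.023 (without replicate 4) to 0.54 for 120 against 20 min. For replicates 5 and 6 against 3 and 4 at 120 min it went from -0.53 to 0.25 (without replicate 4), and was 0.020 with the replicate block. Centering removes what all genes share, by its construction. With 2 libraries a group, low depth limits Slc7a11 (1 to 88 reads per library), Chac1 (65 to 1103) and Ddit3 (78 to 738).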
